A study of Mus musculus with 48 samples.

Results

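Oligodendrocyte precursor cells (OPCs) were examined in a single-cell RNA sequencing series of the mouse hypothalamus at E18.5. They were taken as the cells with at least 1 UMI (unique molecular identifier, 1 counted transcript molecule) of Olig1, with at least 2 of Olig2, Pdgfra, Cspg4 and Sox10 detected, and with at most 1 of the fibroblast genes Col1a1, Col1a2, Col3a1 and Dcn detected. The rule took 174 of the 14121 deposited cells, of which 101 came from control and 73 from Eed-cKO embryos. Control embryos (Eed fl/fl, n = 6) carried the loxP-flanked Eed alleles without Cre, and Eed-cKO embryos (Eed fl/fl; Sox1-Cre/+, n = 9) carried the same alleles with 1 copy of Sox1-Cre, a Cre inserted at the Sox1 locus that acts in the early neural plate, so that cells of non-neural origin, such as microglia and vessels, keep Eed. Eed is a subunit of Polycomb repressive complex 2 (PRC2), and the comparison asked how its early loss in the neural lineage bears on the number, cycling and expressed genes of OPCs. Cre and the altered Sox1 allele were present in Eed-cKO embryos alone, so they cannot be told apart from the loss of Eed. The embryo was the replicate, since the libraries of 1 embryo are pieces of 1 dissected hypothalamus.

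The 22 control libraries held 189 to 1207 cells and the 26 Eed-cKO libraries 163 to 465 cells, and OPCs were found in 21 and in 26 of them. The largest library, from control embryo 5, held 1207 cells and 16 OPCs. Of 14019 barcodes, 101 occurred in more than 1 library, and 1 OPC carried such a barcode. Control embryos came from 4 litters and Eed-cKO embryos from 6, as read from the leading number of the animal names, with 0 litters holding both genotypes, so litter and genotype cannot be told apart, and embryos of 1 litter are not independent. There were 2 female and 4 male control embryos against 5 female and 4 male Eed-cKO embryos. The median depth was 3613 UMIs per control OPC (range 1027 to 17572) and 4635 per Eed-cKO OPC (range 979 to 22083). Per embryo, the median depth of OPCs was 3576 ± 788 UMIs in control (SD, n = 6) and 5412 ± 2236 in Eed-cKO (SD, n = 7 embryos with at least 5 OPCs), with overlapping ranges (exact two-sided permutation test, p = 0.108, adjusted over 5 single-value comparisons 0.181).

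OPCs are the dividing glial progenitors that give rise to the myelinating oligodendrocytes of the brain and spinal cord. Olig1 and Olig2 are basic helix-loop-helix factors of the oligodendrocyte lineage, Sox10 is the factor that drives its later genes, Pdgfra is the receptor through which platelet-derived growth factor keeps OPCs dividing, and Cspg4 encodes the NG2 proteoglycan. As OPCs commit to differentiation they switch on Gpr17 and Bcas1 before the myelin genes, while PRC2 places the repressive H3K27me3 mark on genes such as the Hox clusters and the Cdkn2a locus.

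The label was checked against the markers. Among control and Eed-cKO OPCs, Olig2 was detected in 91.1% and 90.4%, Pdgfra in 80.2% and 72.6%, Cspg4 in 70.3% and 64.4%, and Sox10 in 69.3% and 52.1%. These values chose the cells and are given as a description. Genes the rule did not use were also those of OPCs in control. Lhfpl3 was detected in 69.3% of control OPCs against 13.5% of control astrocyte-lineage cells and 26.6% of control neurons, and Pcdh15 in 54.5% against 7.28% and 16.9%. Gpr17 was detected in 53.5% of control OPCs (median depth 3613 UMIs) and in 0.0504% of control neurons (median depth 5080.5 UMIs), so that free RNA in the droplets gave almost none of it. In Eed-cKO OPCs, Pcdh15 was detected in 17.8% and Gpr17 in 5.48%. The shares were 5.41% and 0% with 2 of the 4 other markers, and 30.6% and 11.1% with 3 or 4. These genes thus checked the label in control only. Whether their lower values in Eed-cKO lie within OPCs or in another mix of cells was not tested. Astrocyte-lineage cells (371 control, 568 Eed-cKO) were those with at least 3 of Slc1a3, Aldoc, Gja1, Aqp4, Agt, Fgfr3, Ntsr2 and Slc6a11, and neurons (5956 and 5054) those with at least 4 of Stmn2, Snap25, Syt1, Elavl4, Gap43, Rbfox3, Stmn3 and Tubb3.

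The rule also took cells that carried astrocyte genes, most often among cells with few markers. At least 3 of the astrocyte class genes were detected in 26.7% of control and 52.1% of Eed-cKO OPCs (27 and 38 cells). Among OPCs with 2 of the 4 other markers, which were 31.7% of control and 50.7% of Eed-cKO OPCs (32 and 37 cells), that share was 59.4% and 73.0%. Among those with 3 or 4 markers (69 and 36 cells) it was 11.6% and 30.6%. It was 3.85% and 14.3% with 3 markers, and 16.3% and 40.9% with 4. The cells with 3 or 4 markers were thus not free of astrocyte genes, which were more frequent there in Eed-cKO. Cells with 2 markers are therefore mixed in both genotypes and more frequent among the Eed-cKO OPCs, and values in the cells with 3 or 4 markers are given beside the main gene results where the gene had enough UMIs there. A share of a gene's UMIs in cells with 2 markers is over all 174 OPCs. Around the threshold, the 255 cells with Olig1 and 1 other marker, just outside the rule, held a median of 4 Olig1 UMIs and showed at least 3 astrocyte class genes in 79.6%, whereas the 69 cells with 2 markers, just inside it, held a median of 5 Olig1 UMIs and showed them in 66.7%. Neuron class genes (at least 4 of 8) were detected in 30.7% of control and 24.7% of Eed-cKO OPCs. Of control OPCs 8.91% and of Eed-cKO OPCs 19.2% were among the 6% of cells with the highest Scrublet doublet score in their library, against 6.38% and 6.55% of neurons. The fibroblast filter left out 0 control cells and 7 Eed-cKO cells that otherwise met the rule.

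**Figure D1:**
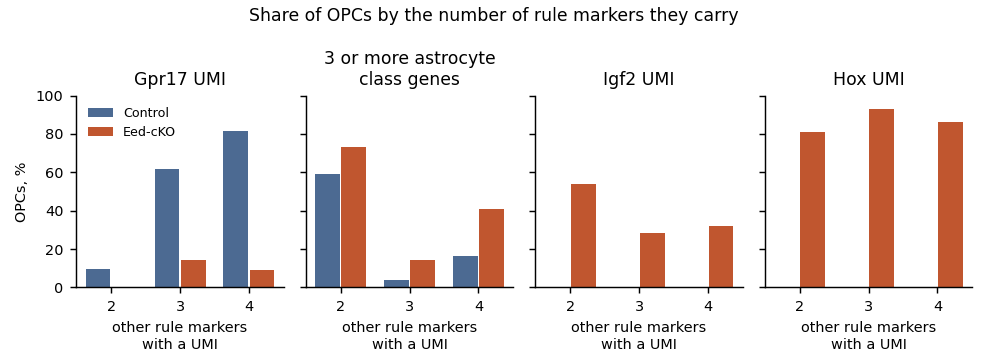
Share of control (blue) and Eed-cKO (orange) OPCs, in percent, that carried a Gpr17 UMI, at least 3 astrocyte class genes, an Igf2 UMI or a Hox UMI, by the number of the other rule markers (2, 3 or 4) with a UMI. Gpr17 lay in control cells with 3 or 4 markers, astrocyte genes lay mostly in cells with 2 markers of both genotypes, and Hox UMIs were found at every marker number in Eed-cKO (81.1%, 92.9% and 86.4%) and in 0 control cells.

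OPCs were a small share of the hypothalamic cells in both genotypes. They made up 0.538% to 1.98% of the cells of the 6 control embryos (median 1.48%, mean 1.40 ± 0.50%, SD) and 0.430% to 1.55% of those of the 9 Eed-cKO embryos (median 0.942%, mean 0.996 ± 0.39%, SD). The ranges overlapped, with the highest Eed-cKO embryo above the median of control and the lowest control embryo near the lowest Eed-cKO embryo. The difference of -0.405 percentage points did not pass an exact two-sided permutation test over embryos (p = 0.102, adjusted 0.181, 95% interval -0.888 to 0.0788, smallest p possible 0.0002). When 3 of the 4 other markers were asked, the difference was -0.432 points (exact permutation p = 0.0456), and with cells carrying at least 3 astrocyte class genes left out it was -0.486 points (exact permutation p = 0.0376), both unadjusted. Without control embryo 3, which had the fewest OPCs in control, it was -0.577 points (exact permutation p = 0.0165). With 1 marker asked it was -0.0263 points (exact permutation p = 0.955). The call thus depended on which Olig1 cells were counted, and a share of cells does not tell fewer OPCs from more of the other cells. Nor does it tell fewer OPCs from lower levels of the markers that choose them. Among Eed-cKO against control OPCs, Sox10 was detected in 52.1% against 69.3% and Olig2 in 90.4% against 91.1%. The part of marker levels in the share differences was not tested.

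**Figure D2:**
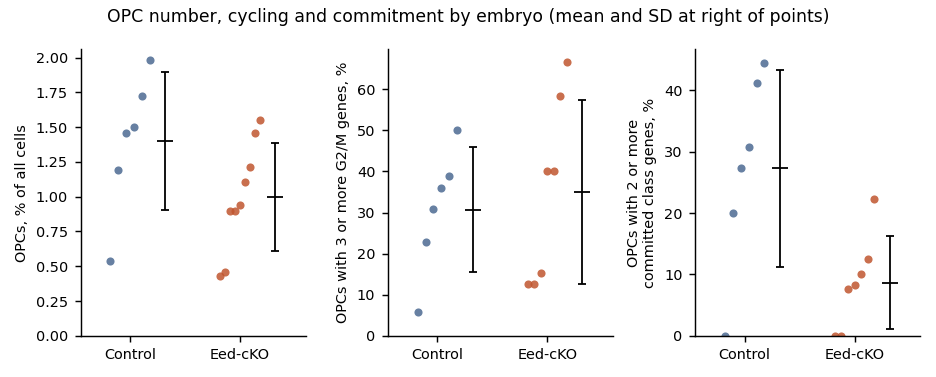
Each point is 1 embryo, with the mean and SD at the right of each group: OPCs as a percent of all cells (6 control, 9 Eed-cKO embryos), and OPCs with at least 3 G2/M genes or at least 2 committed class genes as a percent of OPCs (6 and 7 embryos with at least 5 OPCs). The share of committed OPCs was at most 22.2% in Eed-cKO and 20% or more in 5 of 6 control embryos, and its lowest values were 0% in both groups. The highest Eed-cKO OPC share (1.55%) lay below 2 control embryos, and the G2/M ranges overlapped widely.

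Cycling OPCs were present in both genotypes in shares that overlapped between embryos. OPCs with UMIs of at least 3 of 40 G2/M genes were 5.88% to 50% of the OPCs of a control embryo (median 33.4%, mean 30.7 ± 15.1%, SD, n = 6) and 12.5% to 66.7% in Eed-cKO (median 40.0%, mean 35.1 ± 22.3%, SD, n = 7). The control range lay almost wholly within the Eed-cKO range. The difference of 4.34 points had a 95% interval of -19.7 to 28.4 (exact permutation p = 0.688, adjusted 0.860). It turned negative without control embryo 2 (-0.622 points) or without Eed-cKO embryo 3 (-0.925 points). With cells thinned to 1000, 2000 and 4000 UMIs it was -1.45, 7.13 and 9.68 points (exact permutation p = 0.854, 0.465 and 0.500). Neurons, which have left the cycle, met the same criterion in 1.54% of cells in control against 2.45% in Eed-cKO, and astrocyte-lineage cells in 14.3% and 26.4%. For 30 S phase genes the shares were 51.6 ± 9.88% and 51.5 ± 27.5% (SD, n = 6 and 7), a difference of -0.0830 points (exact permutation p = 0.995, 95% interval -25.7 to 25.5). Neurons met that S phase criterion in 44.0% and 43.0% of cells, so it did not separate cycling from other cells at full depth and no cycling is read from it there. With cells thinned to 1000 UMIs, control and Eed-cKO neurons met it in 1.71% and 1.78% of cells. OPCs then met it in 29.7% and 30.6%, pooled over embryos. The difference over embryos was -3.18 points (exact permutation p = 0.762).

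Single cell cycle genes gave the same picture for the replication and mitosis lists and a different one for cyclin D2 and 2 inhibitors. In the sums of OPC counts per embryo, 9024 genes were tested with edgeR's quasi-likelihood test in 6 control and 7 Eed-cKO embryos, and 222 (2.46%) passed an adjusted p of 0.05, 142 (1.57%) higher and 80 (0.887%) lower in Eed-cKO. The median log2 fold change over all tested genes was -0.03. The 36 tested genes with 0 control UMIs could only be higher, and each was called. Genes with 0 UMIs in Eed-cKO could likewise only be lower. Such calls describe detection, also where a list count below includes them. None of the 28 S phase genes tested (median log2 0.10) and none of the 37 G2/M genes tested (median log2 0.65) passed. Top2a, the mitotic topoisomerase, had CPM (counts scaled to a common library size with TMM factors) of 105, 178 and 343 as the lowest, median and highest control embryo and 0, 332 and 436 in Eed-cKO (log2 0.22 ± 0.39 (SE), adjusted p = 0.914). Of 23 G1 and Rb pathway genes tested, 2 rose and 0 fell (background 1.57% and 0.887%). Ccnd2, which encodes cyclin D2 and drives the step from G1 to S, lay at 109, 269 and 395 CPM in control and at 695, 910.3 and 1395 CPM in Eed-cKO. Every Eed-cKO embryo was above every control embryo, as for 39 of all genes (0.432%), with log2 1.88 ± 0.25 (SE), adjusted p = 2.44e-07, and the cells with 3 or 4 markers gave log2 2.38, adjusted p = 3.83e-07. Ccng1, a p53 target, rose by log2 1.73 ± 0.35 (SE), adjusted p = 6.64e-04, and in the cells with 3 or 4 markers its value was 1.11, adjusted p = 0.524.

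Of 6 CDK inhibitor genes tested, 2 rose and 0 fell (background 1.57% and 0.887%, median log2 0.65). Cdkn2a, which encodes p16Ink4a and p19Arf and is a known target of PRC2, had 0 UMIs in the 6 control embryos and 25 UMIs in Eed-cKO, where the embryos lay at 0, 76.9 and 109.9 CPM, at least 8.52-fold higher against a floor of 3 counts over the group (adjusted p = 0.00139). With 0 control UMIs it could only be higher, so its call is given as a description. Its UMIs were in 19 of 73 Eed-cKO OPCs, and of its 28 UMIs in all Eed-cKO OPCs, those of the embryos with under 5 OPCs included, 85.7% were in cells with 2 markers. It had too few UMIs to be tested in the cells with 3 or 4 markers. Cdkn1a, which encodes p21, lay at 0, 29 and 106 CPM in control and 98.5, 194 and 314 CPM in Eed-cKO, with the groups touching only at their edges (log2 1.94 ± 0.43 (SE), adjusted p = 0.00238). In the cells with 3 or 4 markers its log2 value was 0.98, adjusted p = 0.810. Cdkn1b and Cdkn1c, the p27 and p57 genes, did not pass (log2 -0.32 ± 0.39 and 0.29 ± 0.43, SE). Cyclin D2 and Cdkn1a were thus higher in the same Eed-cKO sums, and Cdkn2a was detected only there. The interval of the G2/M share difference spanned 0.

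The clearest fall among OPC genes was Gpr17, a receptor carried by OPCs that commit to differentiation. It lay at 257, 494 and 596 CPM in the lowest, median and highest control embryo and at 0, 0 and 29.9 CPM in Eed-cKO. The groups were far apart, with 192 UMIs against 4 and a fitted log2 -5.26 ± 0.45 (SE), adjusted p = 2.69e-14. UMIs of Gpr17 were found in 54 of 101 control OPCs (53.5%) and 4 of 73 Eed-cKO OPCs (5.48%). Among cells with 3 or 4 markers the shares were 73.9% and 11.1%, and the fit gave log2 -4.72, adjusted p = 4.41e-13. Cells of this kind were sought by a class of committed genes, of which Gpr17, Bmp4, Bcas1 and Myrf were measured and Enpp6 and Neu4 were not analysed here. OPCs with at least 2 of them were 0% to 44.4% of control OPCs (median 29.0%, mean 27.3 ± 16.1%, SD, n = 6) and 0% to 22.2% of Eed-cKO OPCs (median 8.33%, mean 8.68 ± 7.65%, SD, n = 7), or 30 of 101 and 7 of 73 cells. The difference was -18.6 points (exact permutation p = 0.0251, adjusted 0.125, 95% interval -32.2 to -3.51), and it is not independent of Gpr17. Without control embryo 2 it was -15.8 points (exact permutation p = 0.0543) and without control embryo 6 -15.2 points (exact permutation p = 0.0556).

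The other committed genes moved less. Bcas1, an early marker of myelin-forming cells, lay at 85.5, 178 and 286 CPM in control and 25.6, 59.7 and 221 CPM in Eed-cKO, with overlapping groups (log2 -1.04 ± 0.37 (SE), adjusted p = 0.149). It was detected in 40.6% and 26% of OPCs, and in 55.1% and 47.2% of those with 3 or 4 markers. Myrf, the factor that switches on myelin genes, was found in 6 control and 4 Eed-cKO OPCs, too few to test. Of 14 committed oligodendrocyte genes tested, Gpr17 alone fell and 0 rose (background 0.887% and 1.57%, median log2 -0.31). Of 6 myelin genes tested (median log2 -1.16), Gjc3, a glial connexin, had 16 UMIs in control against 0 in Eed-cKO (adjusted p = 0.0145, in DESeq2 0.130). It passed the filter through the control embryos alone and could only be lower, so its call is given as a description. Mbp, the gene of myelin basic protein, was near the limit of the depth, with 18 UMIs in control against 4 in Eed-cKO, and did not pass (adjusted p = 0.265).

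Genes typical of OPCs that the rule did not use fell in part in Eed-cKO, and none of those tested rose. Of 26 tested, 9 fell, where 0.887% of all genes fell, and 0 rose, with a median log2 of -0.55 against -0.03 over all genes. In the cells with 3 or 4 markers, 6 of 26 fell and 0 rose, with a median of -0.74 (background 33 of 6683 genes lower, 0.494%, and 38 higher, 0.569%). For 4 of the 9, Pcdh15, Lhfpl3, Luzp2 and C1ql1, every Eed-cKO embryo lay below every control embryo, as for 35 of all genes (0.388%). In astrocyte-lineage cells 8 of 26 fell and 1 rose (background 2.66% and 4.69%), and the difference between the classes passed for 0 of the 26. The list was chosen with earlier results of these data known.

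Lhfpl3, a tetraspan membrane protein gene used as an OPC marker, lay at 517, 1130.3 and 1461 CPM in the lowest, median and highest control embryo and at 78.5, 210.3 and 394 CPM in Eed-cKO. The highest Eed-cKO embryo was thus below the lowest control embryo (log2 -2.33 ± 0.27 (SE), adjusted p = 3.04e-09, cells with 3 or 4 markers log2 -2.20, adjusted p = 1.20e-07). Its start window (RefSeq, build GRCm38.p6, chr5:22745804-22746103, plus strand, 250 bases before to 50 after the start) is shown beside those of 2 genes that rose, with every CG dinucleotide in capitals. It held 12 CG dinucleotides, a number reached by 39.6% of the 32851 windows of the table.
Lhfpl3: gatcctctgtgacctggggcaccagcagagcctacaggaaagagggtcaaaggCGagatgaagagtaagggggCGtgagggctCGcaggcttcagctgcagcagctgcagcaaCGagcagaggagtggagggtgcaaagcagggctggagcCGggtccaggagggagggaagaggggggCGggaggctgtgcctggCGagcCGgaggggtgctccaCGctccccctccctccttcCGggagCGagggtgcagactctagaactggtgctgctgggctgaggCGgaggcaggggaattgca

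Pcdh15, a protocadherin gene, lay at 218, 409.5 and 684 CPM in control and 0, 62.8 and 66.4 CPM in Eed-cKO (log2 -2.84 ± 0.36 (SE), adjusted p = 3.79e-08, cells with 3 or 4 markers log2 -2.50, adjusted p = 4.31e-06). Luzp2, a leucine zipper protein gene of glial progenitors, lay at 328, 587 and 1239.9 against 26, 44.8 and 316 CPM (log2 -2.54 ± 0.35 (SE), adjusted p = 5.14e-07, cells with 3 or 4 markers -2.47, adjusted p = 1.86e-05). These groups did not overlap, and the cells with 3 or 4 markers gave falls of similar size. C1ql1, which encodes a secreted C1q-like protein, lay at 81.7, 132 and 246 against 0, 29.9 and 65.6 CPM (log2 -2.37 ± 0.50 (SE), adjusted p = 0.00143, cells with 3 or 4 markers -4.59, adjusted p = 1.86e-05). Ednrb, the endothelin receptor through which astrocyte signals reach OPCs, lay at 639.6, 1139.7 and 2352 against 197, 384 and 789.7 CPM (log2 -1.42 ± 0.25 (SE), adjusted p = 7.83e-05, cells with 3 or 4 markers -2.33, adjusted p = 4.84e-07). Only the top of its Eed-cKO range entered the control range. Ptprz1, a receptor phosphatase of glial progenitors, fell from 1170.3, 2185 and 3058 to 599, 717 and 1307 CPM (log2 -1.39 ± 0.22 (SE), adjusted p = 1.24e-05, cells with 3 or 4 markers -1.28, adjusted p = 0.00251).

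The 3 remaining falls of the list were not called in the cells with 3 or 4 markers. Cspg5, the neuroglycan C gene, had log2 -0.81 ± 0.22 (SE, adjusted p = 0.0252) and -0.97, adjusted p = 0.0601 there. Scrg1 had -1.18 ± 0.30 (SE, adjusted p = 0.0140) and -1.01, adjusted p = 0.241. Pllp, the plasmolipin gene, had -2.74 ± 0.76 (SE, adjusted p = 0.0297) and -2.76, adjusted p = 0.131, from 25 and 3 UMIs. Sox6, a factor that holds OPCs undifferentiated, did not pass (log2 -0.62 ± 0.27, SE, adjusted p = 0.345).

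Of the rule's own markers, given as a description, Pdgfra lay at 1048, 2259 and 2707 CPM in control and 231, 521 and 886 CPM in Eed-cKO, and Cspg4 at 204, 363 and 914 and 119, 177 and 312 CPM. Olig1 lay at 1539, 2201 and 2683 and 1075, 1617 and 2691, Olig2 at 769.6, 889 and 932 and 443, 632 and 886, and Sox10 at 385, 536 and 732 and 76.9, 312 and 487 CPM. Pdgfra was the one marker of which the groups did not overlap. These are levels within cells that had to carry at least 2 of the 4, so they do not measure how many cells express each gene.

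**Figure D3:**
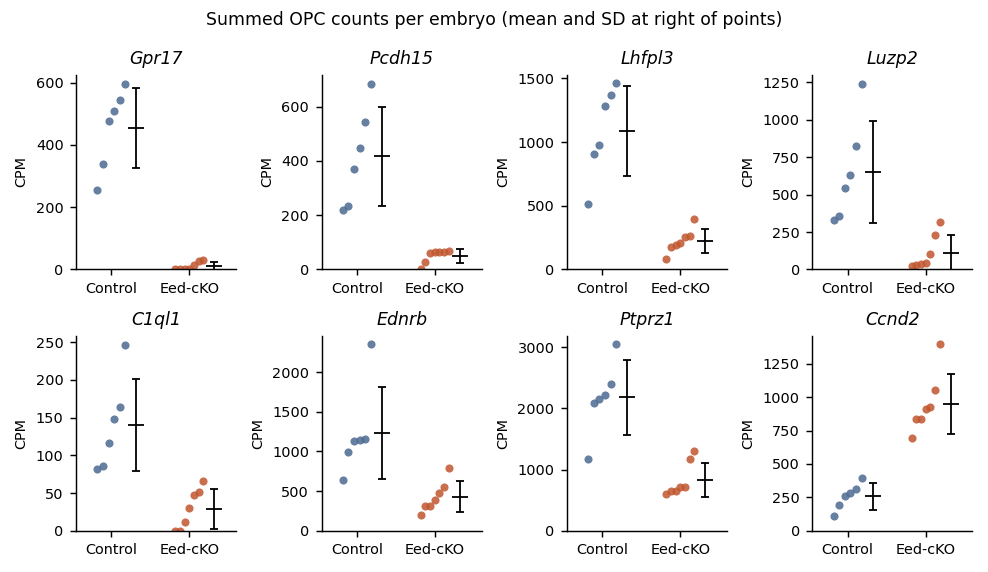
CPM of 8 genes in the summed OPC counts of each embryo (6 control in blue, 7 Eed-cKO in orange), with the mean and SD at the right of each group. For Gpr17, Pcdh15, Lhfpl3, Luzp2 and C1ql1 all Eed-cKO embryos lie below all control embryos, for Ednrb and Ptprz1 the edges overlap, and for Ccnd2 all Eed-cKO embryos lie above, at 695 CPM or more.

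Receptor, channel and lipid genes changed in few members. Of 25 ion channel and receptor genes of OPCs tested, 3 fell and 0 rose (background 0.887% and 1.57%, median log2 -0.31). These were Ednrb, Kcnd2 and Gria2. Kcnd2, which encodes an A-type potassium channel, lay at 259, 407 and 566 CPM in control and 74.6, 104 and 205 CPM in Eed-cKO without overlap (log2 -1.81 ± 0.30 (SE), adjusted p = 2.06e-05, cells with 3 or 4 markers -1.68, adjusted p = 0.00588). Gria2, the AMPA receptor subunit that limits calcium entry, lay at 932, 1055 and 1454 and 345, 641 and 791 CPM, also without overlap (log2 -0.91 ± 0.22 (SE), adjusted p = 0.00920, cells with 3 or 4 markers -0.70, adjusted p = 0.399). Of all genes, 0.388% were lower without overlap. Of 26 genes of cholesterol and lipid synthesis tested, the desaturase gene Scd2 alone fell (log2 -0.87 ± 0.21, SE, adjusted p = 0.00709) and 0 rose, with a median of -0.36. In the cells with 3 or 4 markers Scd2 had -0.46, adjusted p = 0.703. In astrocyte-lineage cells 16 of 27 genes of that list fell and 0 rose (background 2.66% and 4.69%), but the interaction passed for none of the list's genes in OPCs.

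Genes with the largest fitted falls outside these lists had few UMIs. Atp10b, a phospholipid flippase gene, had 25 UMIs in control against 0 in Eed-cKO (adjusted p = 0.00169, cells with 3 or 4 markers 0.0152). With 0 UMIs in Eed-cKO it could only be lower. Npas1, a transcription factor gene, lay at 17.6, 131 and 223 CPM in control and 0, 0 and 98.5 CPM in Eed-cKO (log2 -3.26 ± 0.67 (SE), adjusted p = 8.90e-04, cells with 3 or 4 markers -3.02, adjusted p = 0.00826), with 1 Eed-cKO embryo inside the control range. Reck, Vsnl1, Slc22a3 and Tmem255a had 16, 61, 21 and 25 UMIs in control against 1, 6, 2 and 3 in Eed-cKO. Their adjusted p-values were 0.0476, 0.00260, 0.0335 and 0.0313, and with DESeq2 none of these 4 passed (0.177, 0.605, 0.0605 and 0.0919).

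Hox genes, the homeobox genes that specify position along the body axis and that the brain in front of the hindbrain normally does not express, appeared in most Eed-cKO OPCs. Of 34 Hox genes in the table, 32 had a UMI in Eed-cKO OPCs and 0 in control OPCs. The 359 Hox UMIs lay in 62 of 73 Eed-cKO OPCs (84.9%) against 0 of 101 control OPCs, a count of 0 that allows a share of up to 2.97%. Cells of Eed-cKO embryos that Sox1-Cre does not act in gave the background of free RNA: a Hox UMI was found in 5 of 99 endothelial cells (5.05%, median depth 4354 UMIs) and in 1 of 38 microglia (2.63%, median depth 2365 UMIs), against a median depth of 4635 UMIs in Eed-cKO OPCs. Endothelial cells and microglia were the cells with at least 3 of 6 class genes of their type. Among Eed-cKO OPCs with 2, 3 and 4 markers the shares were 81.1%, 92.9% and 86.4%. Per embryo, 5.32 to 11.6 of 10000 UMIs of Eed-cKO OPCs were Hox UMIs (median 7.99, n = 7), and 0 in each control embryo. In Eed-cKO astrocyte-lineage cells the values were 3.47 to 7.27 (median 5.36, n = 9) and in Eed-cKO neurons 3.92 to 5.94 (median 4.91, n = 9), with 1 Hox UMI in control astrocyte-lineage cells and 5 in control neurons. The ranges of OPCs and the other classes overlapped, and the difference between classes was not tested for the sum. None of the 9 Hox genes tested differed in its genotype effect between OPCs and either class.

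The 9 Hox genes with enough UMIs to be tested each had 0 UMIs in the control embryos. They passed the filter through the Eed-cKO embryos alone and so could only be higher, as could all 36 tested genes with 0 control UMIs, each of which was called, so the number called is given as a description. The 9 came from all clusters: Hoxa5, Hoxa7, Hoxa9 and Hoxa10, Hoxb13, Hoxc8 and Hoxc10, and Hoxd8 and Hoxd13. Hoxb13, a gene of the tail end of the axis, was the highest, at 25.6, 88.6 and 229.7 CPM in the lowest, median and highest Eed-cKO embryo, at least 10.9-fold above a floor of 3 counts over the control group (adjusted p = 1.21e-04, cells with 3 or 4 markers 0.00166). For the other 8 the bound lay between 5.11- and 9.20-fold. Hoxd13, also of the tail end and the lowest of the 9, lay at 14.9, 32.8 and 128 CPM in Eed-cKO (adjusted p = 0.0120). In 5 of the 9 every Eed-cKO embryo had a UMI. PRC2 and PRC1 genes themselves did not pass in either direction (0 of 10 and 0 of 14 tested, medians -0.10 and -0.03). Eed had 24 UMIs in control against 11 in Eed-cKO OPCs (log2 -0.999 ± 0.60 (SE), adjusted p = 0.612). Its 3' tags lie outside the deleted part of the gene, and with so few UMIs this count does not check the deletion in OPCs. Over all hypothalamic neural cells at E18.5, the paper reported Eed as downregulated.

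**Figure D4:**
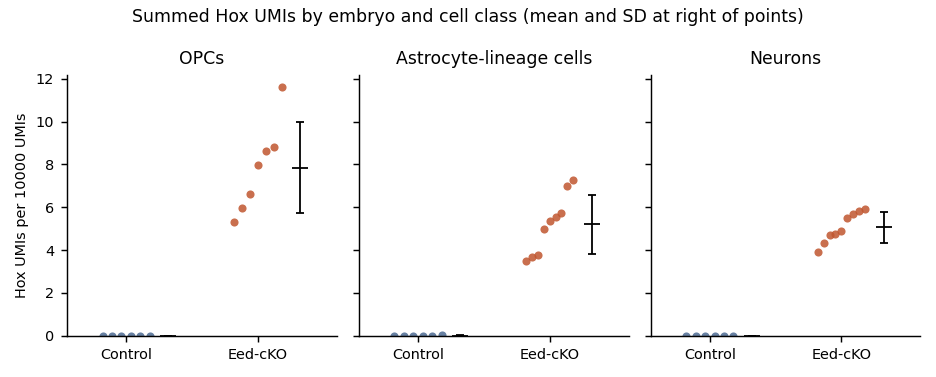
Summed Hox UMIs per 10000 UMIs in OPCs, astrocyte-lineage cells and neurons of each embryo with at least 5 cells of the class (control in blue, Eed-cKO in orange), with the mean and SD at the right of each group. Control embryos lie at or near 0 in all 3 classes, and Eed-cKO OPCs span 5.32 to 11.6, overlapping the Eed-cKO embryos of the other classes.

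The start windows of Hoxd13 and of the 2 starts of Cdkn2a (RefSeq, GRCm38.p6) are shown because PRC2 is known to act at CG-rich starts, and these genes had 0 UMIs in control. Hoxd13 (chr2:74667975-74668274, plus strand) held 37 CG dinucleotides, a number reached by 5.58% of all windows. The start of Cdkn2a at chr4:89282143-89282442 (minus strand) held 12 (39.6% of windows) and that at chr4:89294570-89294869 (minus strand) 45 (1.93% of windows). The 3' counts do not tell which start was used, and the numbers of CG describe these windows only.
Hoxd13: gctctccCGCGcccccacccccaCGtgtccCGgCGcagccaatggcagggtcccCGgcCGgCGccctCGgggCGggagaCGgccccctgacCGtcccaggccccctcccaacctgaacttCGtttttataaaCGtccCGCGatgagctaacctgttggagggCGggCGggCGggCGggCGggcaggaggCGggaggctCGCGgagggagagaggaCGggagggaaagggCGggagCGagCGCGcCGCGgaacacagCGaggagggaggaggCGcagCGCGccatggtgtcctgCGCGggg
Cdkn2a, chr4:89282143-89282442: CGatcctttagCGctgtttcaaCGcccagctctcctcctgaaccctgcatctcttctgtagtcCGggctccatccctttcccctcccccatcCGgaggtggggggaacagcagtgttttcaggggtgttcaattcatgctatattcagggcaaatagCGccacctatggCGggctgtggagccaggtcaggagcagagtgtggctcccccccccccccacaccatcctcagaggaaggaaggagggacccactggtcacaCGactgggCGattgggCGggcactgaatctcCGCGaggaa
Cdkn2a, chr4:89294570-89294869: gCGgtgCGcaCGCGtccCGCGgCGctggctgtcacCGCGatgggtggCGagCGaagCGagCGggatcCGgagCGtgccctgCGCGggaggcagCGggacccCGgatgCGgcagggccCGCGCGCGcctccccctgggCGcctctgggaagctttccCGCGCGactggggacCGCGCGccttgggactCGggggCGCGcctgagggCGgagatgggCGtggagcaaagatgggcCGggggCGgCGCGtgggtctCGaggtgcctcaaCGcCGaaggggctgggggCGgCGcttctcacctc

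Among 20 genes of PDGF, FGF, EGF and IGF signalling tested, 3 rose and 0 fell (background 1.57% and 0.887%, median log2 0.36). Igf2, an imprinted growth factor gene, had 0 UMIs in control OPCs and 68 in Eed-cKO, where each of the 7 embryos carried it, at 65.6, 155 and 328 CPM, at least 23.2-fold above the floor (adjusted p = 3.38e-08). With 0 control UMIs it could only be higher. It was found in 31 of 73 Eed-cKO OPCs, in 54.1% of those with 2 markers, 28.6% of those with 3 and 31.8% of those with 4. Igfbp5, which binds insulin-like growth factors, lay at 0, 52.6 and 340.0 CPM in control and 130.2, 597 and 1758 CPM in Eed-cKO (log2 2.64 ± 0.38 (SE), adjusted p = 8.42e-07), with 2 control embryos inside the Eed-cKO range. In the cells with 3 or 4 markers its value was 0.14, adjusted p = 0.985, and 86.2% of its UMIs were in cells with 2 markers. Spry4, an inhibitor of FGF signalling, rose by 1.64 ± 0.43 (SE, adjusted p = 0.0176, cells with 3 or 4 markers 1.52, adjusted p = 0.235).

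Of 28 genes of Shh, BMP, Wnt and Notch signalling tested, 6 rose and 0 fell (background 1.57% and 0.887%, median log2 0.52). Lef1, the Wnt pathway factor, had 2 UMIs in control against 26 in Eed-cKO (log2 3.37 ± 0.85 (SE), adjusted p = 0.0120), and it alone was called in the cells with 3 or 4 markers (log2 4.41, adjusted p = 3.76e-04). Id1, an inhibitor of helix-loop-helix factors and BMP target, lay at 11.6, 28.7 and 105 CPM in control and at a median of 286 CPM in Eed-cKO, where 1 embryo was at 0 (log2 3.05 ± 0.46 (SE), adjusted p = 3.63e-06). Id4 lay at 0, 78.3 and 105 and 104, 308 and 487 CPM (log2 2.18 ± 0.36 (SE), adjusted p = 2.20e-05). The cells with 2 markers held 93.9% of Id1 and 83.7% of Id4 UMIs, and in the cells with 3 or 4 markers Id4 had log2 -0.71, adjusted p = 0.925. Id3, Notch2 and Hey1, a Notch target, made up the other calls (log2 1.17 ± 0.30, 2.31 ± 0.66 and 1.95 ± 0.39, SE), of which Id3 and Hey1 had 0.16, adjusted p = 0.984 and 2.16, adjusted p = 0.0722 in the cells with 3 or 4 markers. Of 22 early progenitor genes tested, Hes1, Vim and Btg2 rose and 0 fell (median log2 -0.12). Vim, the progenitor filament gene, lay at 435, 591 and 1239.9 CPM in control and 788, 2076 and 2699.5 CPM in Eed-cKO (log2 1.47 ± 0.24 (SE), adjusted p = 2.24e-05), and it was called in the cells with 3 or 4 markers too (1.32, adjusted p = 0.00139). Btg2 had -0.12, adjusted p = 0.986 there, and the Notch ligand genes Dll1 and Dll3, which did not pass in all OPCs (adjusted p = 0.0822 and 0.122), fell there (-4.63, adjusted p = 0.0296 and -2.53, adjusted p = 0.0413).

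Several of the largest rises belonged to no list, and they too differed in the cells that carried them. Pgm5, a phosphoglucomutase-like protein of adhesion sites, had 0 UMIs in control against 43 in Eed-cKO, present in every embryo at 31.4, 103 and 263 CPM, at least 14.7-fold above the floor (adjusted p = 6.02e-06, cells with 3 or 4 markers 1.57e-05). Eda2r, a p53 target of the tumour necrosis factor receptor family, had 0 and 34 UMIs, also in every Eed-cKO embryo (at least 11.6-fold, adjusted p = 4.62e-05, too few UMIs to be tested in the cells with 3 or 4 markers). With 0 control UMIs, Pgm5 and Eda2r could only be higher, as could Crym, Col23a1 and Npy. Crym, Trh, Col23a1, Npy and Klf2 also rose (adjusted p = 1.68e-06, 0.00223, 1.60e-04, 3.33e-04 and 7.22e-05). Of Crym, 101 of 137 UMIs were in 1 cell of Eed-cKO embryo 4, and of Trh, a hypothalamic neuropeptide, 37 were in 1 cell of that embryo. At least 92.7% of the UMIs of each of these 5 genes were in cells with 2 markers.

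Regional regulators other than Hox genes mostly had too few UMIs in OPCs to be tested. Of 39 hypothalamic and anterior regulators measured, 17 were tested, and 0 rose and 0 fell (median log2 0.34). Of 31 genes measured from a list of posterior and spinal regulators, 8 were tested (median log2 1.06), of which 2 rose and 0 fell, where 1.57% of all genes rose. These were Zic1 and Zic2 (1.74 and 2.75 on the log2 scale, adjusted p = 0.0163 and 0.0185), with 21 and 4 UMIs in control against 75 and 31 in Eed-cKO. Both were present in control OPCs, so no posterior identity is read from their rise. In the cells with 3 or 4 markers, 3 genes of that list were tested, and 0 rose and 0 fell (median log2 -0.47). Vax2, a ventral eye regulator and the one tested member of the study's 6 ectopic regulators, had 0 and 16 UMIs, so it could only be higher (at least 5.45-fold, adjusted p = 0.0118). That list was chosen by the study on these samples and is not independent evidence of direction. With DESeq2 none of Zic1, Zic2 and Vax2 passed (0.163, 0.0780 and 0.0639).

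Markers of other cell types moved with the genotype to different degrees. Of 14 astrocyte markers tested, Aqp4, the water channel, and Slc1a2, a glutamate transporter, rose and 0 fell (background 1.57% and 0.887%, median log2 0.67). Summed, the markers made up 28.9 to 59.7 of 10000 UMIs in the OPCs of control embryos (median 32.5) and 16 to 83.5 in Eed-cKO (median 57.7). Within the cells with 2 markers the pooled values were 85.6 and 86.5, and within those with 3 or 4 markers 8.10 and 16.8, where Slc1a3 and Aldoc rose (log2 1.36, adjusted p = 0.00294 and 1.73, adjusted p = 0.0250). The pooled level in the cells with 2 markers was thus about the same in both genotypes, but pooling does not treat the embryo as the replicate. Taken by embryo, those cells had a middle value of 87.7 among control embryos, which spanned 57.6 to 125. Among Eed-cKO embryos the middle value was 69.2, with a wider span of 23.8 to 144 that enclosed all control embryos. Cells with 2 markers were more frequent among Eed-cKO OPCs, and their part in the higher astrocyte marker values was not tested. Of 10 ependymal and tanycyte markers, 3 had enough UMIs to be tested, Foxj1, Col23a1 and Crym, and with 0 control UMIs in each they could only be higher. In all 174 OPCs, 86.7% of the UMIs of Foxj1, all of those of Col23a1 and 98.5% of those of Crym were in cells with 2 markers. Of 16 neuron markers tested, Stmn2 fell (log2 -1.17 ± 0.34 (SE), adjusted p = 0.0416) and 0 rose. Microglial markers had 2 UMIs in control OPCs against 1 in Eed-cKO OPCs, endothelial and pericyte markers 6 and 99, and fibroblast markers 9 and 70. Cldn5, the one endothelial marker called, had its 28 UMIs in 1 cell. The part of these cells in the gene results was not tested beyond the values in the cells with 3 or 4 markers.

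Immediate early and stress genes, which respond within minutes and are also known to rise during tissue dissociation, were higher in Eed-cKO OPCs. Of 23 tested, 13 rose and 0 fell, with a median log2 of 1.47, where 1.57% of all genes rose. Summed, they made up 27.8 to 60.1 of 10000 UMIs in control embryos (median 36.5) and 55.6 to 108 in Eed-cKO (median 84.3), with the groups overlapping at their edges. Fos lay at 214, 567 and 1148 CPM in control and 833, 1384 and 2795 CPM in Eed-cKO (log2 1.47 ± 0.27 (SE), adjusted p = 1.30e-04), and Jun at 128, 218 and 566 and 394, 552 and 1365 CPM (log2 1.48 ± 0.28 (SE), adjusted p = 3.25e-04). In the cells with 3 or 4 markers 3 of 17 rose (background 0.569%), the heat shock genes Hspa1a and Hspa1b (log2 2.40, adjusted p = 3.74e-04 and 2.87, adjusted p = 2.48e-05) and Egr1 (1.21, adjusted p = 0.0344), and the summed level was 21.5 to 40.4 in control and 0 to 62.2 in Eed-cKO. In astrocyte-lineage cells 14 of 23 of these genes rose as well (background 4.69%). In the cells with 3 or 4 markers Fos and Jun had log2 0.94, adjusted p = 0.399 and 0.82, adjusted p = 0.482. They moved with the other rises reported here, and their part in them was not tested. Of 30 matrix and adhesion genes tested, Col9a3, Sparc and Sparcl1 rose and Cspg5 and Ptprz1 fell (background 1.57% and 0.887%, median log2 0.38). Sparcl1, a matrix protein gene of astrocytes and progenitors, lay at 0, 263 and 639 CPM in control and 492, 2119.8 and 3206 CPM in Eed-cKO, with overlap at the edges (log2 2.63 ± 0.35 (SE), adjusted p = 1.15e-07, cells with 3 or 4 markers 2.14, adjusted p = 0.00252).

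**Figure D5:**
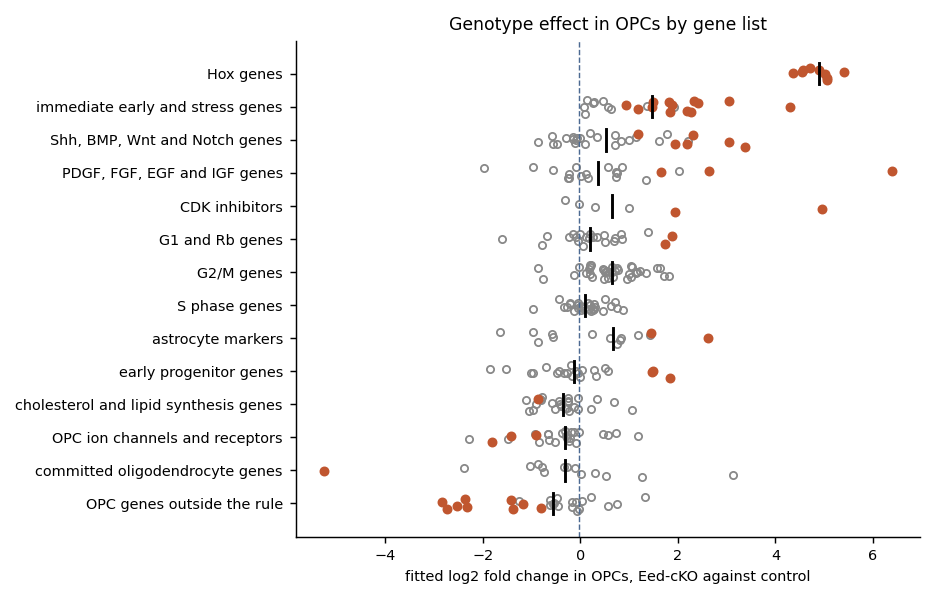
Fitted log2 fold change of each tested gene in OPCs, Eed-cKO against control, by list. Filled orange points passed an adjusted p of 0.05, open points did not, black bars are list medians and the dashed line is the median of all tested genes (-0.03). The Hox points all lie at the right, where control embryos had 0 UMIs and the fitted size is no bound, and the called OPC genes all lie at the left.

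Whether a genotype effect differed between OPCs and another class of the same embryos was tested as an interaction, with the embryo as a term. Against astrocyte-lineage cells 9 of 9024 genes (0.0997%) differed, 3 (0.0332%) with a higher and 6 (0.0665%) with a lower effect in OPCs. Of the 3 higher, Col2a1, a collagen gene, had a genotype effect of log2 3.30 in OPCs and -0.45 in astrocyte-lineage cells (difference 3.67 ± 0.68 (SE), adjusted p = 0.00497). For Sparcl1 the values were 2.63 and 0.16 (difference 2.37 ± 0.50 (SE), adjusted p = 0.0227), and for Dkk3, a secreted Wnt modulator, 1.72 and -0.74 (difference 2.47 ± 0.52 (SE), adjusted p = 0.0227), and the calls of Sparcl1 and Dkk3 were kept in 7 and 6 of the 13 fits that each left out 1 embryo. Among the lower, Ccnd1, which encodes cyclin D1, had 0.83 in OPCs (adjusted p = 0.0544) and 2.87 in astrocyte-lineage cells (adjusted p = 2.64e-09, where 4.69% of genes rose, difference -1.97 ± 0.33 (SE), adjusted p = 8.45e-04). The effect on cyclin D1 transcripts was thus smaller in OPCs, where it did not pass on its own. Tagln2, an actin-binding protein gene, had 0.19 and 2.71 (difference -2.63 ± 0.33 (SE), adjusted p = 3.07e-06), and for Enpp2, the autotaxin gene expressed by OPCs, -1.42 and 0.33 (difference -1.83 ± 0.34 (SE), adjusted p = 0.00531). Pdgfra and Cspg4 were also among the lower, but the rule fixed them in OPCs. The count of 9 became 5 without any of control embryos 1, 2, 3 and 6 or Eed-cKO embryo 4, and 20 without Eed-cKO embryo 3.

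Against neurons 84 genes (0.931%) differed, 41 (0.454%) with a higher and 43 (0.477%) with a lower effect in OPCs, and the count was 40 without control embryo 4 and 52 without control embryo 6. Igfbp5 had log2 2.64 in OPCs and -0.56 in neurons (difference 3.11 ± 0.40 (SE), adjusted p = 2.10e-07), and Tmem132c, a membrane protein gene, 3.64 and -0.61 (difference 4.39 ± 0.74 (SE), adjusted p = 1.71e-04). Sparcl1, Npy and Igf2 were the other 3 of the 5 strongest higher effects, and for Npy and Igf2, with 0 UMIs in control OPCs, the fitted size is no bound (adjusted p = 2.33e-04 and 2.33e-04). Among the lower effects, Lhfpl3 had -2.33 in OPCs and -0.59 in neurons (difference -1.77 ± 0.28 (SE), adjusted p = 2.43e-05), and Ptprz1 had -1.39 and -0.14 (difference -1.29 ± 0.22 (SE), adjusted p = 2.33e-04). Sox9, a glial factor, had -0.70 in OPCs and 1.40 in neurons (difference -2.09 ± 0.27 (SE), adjusted p = 2.72e-07), with fitted values of opposite sign, of which the one in OPCs did not pass (adjusted p = 0.0825). The transcript 3110035E14Rik had -2.49 and 0.39 (difference -2.89 ± 0.41 (SE), adjusted p = 2.27e-06). Of the 26 OPC genes outside the rule, 5 had a lower effect in OPCs than in neurons and 0 a higher one. Luzp2 and Lhfpl3 were among those that fell in astrocyte-lineage cells (-3.10 and -1.73, adjusted p = 2.00e-08 and 0.00528, background 344 of 12947 genes lower, 2.66%), with differences from OPCs that did not pass. For Gpr17, which was near 0 in both other classes, the difference could not be estimated well and did not pass either (adjusted p = 0.706 and 0.987).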

How the data were processed

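Per the study's methods and the submitters' processing notes, the authors aligned ddSEQ (SureCell 3') reads to mm10 with STAR 2.5.2b, used SAMtools 1.3, and removed cells under 600 UMIs, 300 genes or 1.2 UMIs per gene. The deposited values are raw counts (UMIs) of 16510 genes in 14121 cells, with 0 cell columns that match no sample. No cell type annotation was used here: cells were classed by the rules given above. No doublets were removed in the main analysis, and removing the highest doublet scores was an alternative.

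OPC counts were summed per embryo (at least 5 OPCs, so that Eed-cKO embryos 2 and 9 were left out), genes with under 15 UMIs in all or no embryo with 2 UMIs were left out, and edgeR 4.0.16 (quasi-likelihood, TMM, R 4.3.3) was used with Benjamini-Hochberg adjustment. With 17847 to 101926 UMIs per embryo, 1 UMI was worth 10.6 to 42.8 CPM. Counting intervals and floors cover counting error only. Interactions were fitted with the embryo as a term. Shares were compared over embryos with exact two-sided permutation tests (scipy 1.17.1). On simulated counts of 8622 genes for the OPC comparison, 18.2%, 62.1% and 87.9% of genes made to differ by log2 1, 2 and 3 were called, and 4 of 8424 unchanged genes. These counts were drawn independently for each embryo, without litters and without a mix of cells that differs by genotype. The rates therefore do not cover errors from either. Named genes were list members, the 10 largest called rises and falls, and the 5 lowest p-values of each interaction in each direction. The members and lists were chosen with earlier results of these data known. Alternatives covered normalization (DESeq2 1.42.0 size factors, library size alone), limma 3.58.1 with TREAT, count filters, depth, doublet scores (scanpy 1.11.5), markers, sex, litter and leaving out embryos. Promoter windows came from RefSeq.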

Additional observations from a re-analysis of the deposited data

Results flagged for a closer look

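Of 164 sets of values of 1 gene, share or depth in 1 group, 21 (12.8%) held an embryo far from the others of its group by Dixon's test, each a set of 1 gene. That test flags about 1 in 20 sets of normally distributed values. Sparse CPM with many zeros are not such values, so no excess is read from the 12.8%. Among genes that fell, these were Ednrb in control embryo 3 (2352 CPM), Scrg1 in Eed-cKO embryo 8 (558 CPM), Pllp in Eed-cKO embryo 3 (52.1 CPM), Kcnd2 in Eed-cKO embryo 6 (205 CPM), Npas1 in Eed-cKO embryo 8 (98.5 CPM), Reck in Eed-cKO embryo 5 (11.1 CPM), and Vsnl1 in control embryo 6 (446 CPM) and Eed-cKO embryo 7 (89.6 CPM). Among genes that rose, Eed-cKO embryo 4 stood apart for Crym (1585 CPM), Trh (581 CPM), Ngfr (173 CPM) and Zic1 (471 CPM), and the first 2 of these rested mostly on 1 cell. Eed-cKO embryo 5 stood apart for Klf2 (565 CPM) and Cldn5 (309.9 CPM), the latter from 1 cell, and Eed-cKO embryo 1 for Hoxd13 (128 CPM). Control embryos stood apart for Id1 (embryo 2, 105 CPM), Klf2 (embryo 6, 10.6 CPM), Zic1 (embryo 3, 257 CPM), Zic2 (embryo 5, 40.8 CPM), Jun (embryo 1, 566 CPM) and Atf3 (embryo 5, 27.2 CPM). Control embryo 3 had the fewest OPCs of the control embryos, and 1 UMI was worth 42.8 CPM in it.

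The genotype effect (log2, Eed-cKO minus control) differed between OPCs and astrocyte-lineage cells, by the interaction test of edgeR, for Col2a1 (3.67), Dkk3 (2.47), Sparcl1 (2.37), Tagln2 (-2.63), Ccnd1 (-1.97) and Enpp2 (-1.83). Between OPCs and neurons it differed for Igfbp5 (3.11), Sparcl1 (2.61), Tmem132c (4.39), Sox9 (-2.09), 3110035E14Rik (-2.89), Lhfpl3 (-1.77) and Ptprz1 (-1.29), and for Npy (10.996) and Igf2 (10.73), whose sizes are fitted against 0 UMIs in control OPCs and are no bound.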

How the results depend on the processing

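The shares rested on few cells. The OPC share difference passed an unadjusted p of 0.05 with cells thinned to 1000 UMIs (-0.450 points), with the highest Scrublet scores removed (-0.498), with 3 of 4 markers asked (-0.432) and without cells carrying 3 astrocyte class genes (-0.486), and leaving out 1 embryo gave -0.577 to -0.288. The committed share missed it with litter as the sample (-16.6), 3 markers asked (-18.8) or those cells left out (-22.3), with -24.1 to -15.2 without 1 embryo. The G2/M difference reversed with cells thinned to 1000 UMIs (-1.45) and with the library as the sample (-2.62), and ranged from -0.925 to 8.20 without 1 embryo. The S phase difference reversed with cells thinned to 2000 (3.84) or 4000 UMIs (0.359), Scrublet scores (2.52), litter (3.49), 3 markers (12.0), 2 Olig1 UMIs (1.24), 2 (5.84) or 5 (4.95) list genes, fibroblast genes not used (0.668) and without the largest library (0.510), and ranged from -6.78 to 6.41 without 1 embryo. Median UMIs per OPC differed by 1363 to 2197 without 1 embryo. The 222 genes called became 131 with DESeq2, 140 at 50 or more UMIs, 142 with TREAT, 71 with 3 markers asked (54 of them among the 222) and 69 without cells carrying astrocyte genes, and 162 to 236 without 1 embryo. Interactions against astrocyte-lineage cells became 34 without the filter, 15 with Scrublet and 22 with 3 markers (5 to 20 without 1 embryo), and those against neurons 46 at 10 or more cells and 34 with 3 markers (40 to 87 without 1 embryo). The values of Id4 (-0.71), Slc1a2 (-0.0726), Nr4a1 (-0.35) and Btg2 (-0.12) reversed with 3 markers asked, as did Fosb (-4.47) and Btg2 (-1.01) without cells carrying astrocyte genes. Of 49 named genes that could be fitted with 3 markers asked, 21 were called in the same direction, of 76 with DESeq2 48, and of 77 with library size alone 77. Without 1 embryo, 865 of 960 fits kept the call, and it was lost in 5 or more fits for Atf3, Cspg5, Egr1, Notch2, Nr4a1, Pllp, Reck, Slc22a3, Stmn2, Tmem255a and Zic2. The alternatives with the fibroblast genes, the astrocyte or neuron class genes or the largest library left out were chosen after seeing the data. Beyond the values given for cells with 3 or 4 markers, the cause was not tested. No paired analysis was possible because control and Eed-cKO embryos share no litter and the replicate numbers only name the samples.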
